A study of Oryctolagus cuniculus with 17 samples.

Results

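The genes described here are 9 chemokine and chemokine receptor genes that steer monocytes and lymphocytes: the ligands CCL2, CCL7, CCL20, CXCL12 and CX3CL1 and the receptors CCR1, CCR2, CXCR4 and CX3CR1. They were found by the human gene names that the count table assigns to rabbit genes, keeping for each name the entry with the most counts among those reported here. All 9 were present among the 13827 entries of the table and all 9 were among the 13142 entries tested. By its labels the RNA came from right lung homogenates of New Zealand White rabbit pups, which were delivered preterm on day 28 of gestation, fed a milk replacer and kept in 95% oxygen (hyperoxia, HT) or in 21% oxygen (normoxia, NT) until postnatal day 3, 5 or 7. The groups are named HT3, HT5, HT7, NT3, NT5 and NT7, with 3 samples each except 2 in HT5, where the study lost a sample for technical reasons. All groups share preterm birth, so the controls are not healthy term pups. Neither the labels nor the methods say which pups shared a dam, and p-values measure the spread between these samples.

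Chemokines are small secreted proteins that attract leukocytes through receptors of the G protein-coupled family. CCL2 and CCL7 are ligands of CCR2, which marks inflammatory monocytes, and CCL7 also binds CCR1, a receptor of monocytes and neutrophils. CCL20 is the ligand of CCR6 and attracts lymphocytes and immature dendritic cells. CXCL12 acts through CXCR4, which many leukocytes, progenitors and endothelial cells carry, and a second receptor, ACKR3, takes CXCL12 up without classical signalling. CX3CL1, or fractalkine, is made as a membrane protein of endothelium and epithelium, is cut free by the proteases ADAM10 and ADAM17, and binds CX3CR1 on monocytes, macrophages, NK cells and T cells. In whole lung tissue, fewer cells of a type and less RNA per cell cannot be told apart.

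Coordinates are those of the table, and the submitters' processing notes list the build OryCun2.0. On chromosome 19, CCL2 (ENSOCUG00000021710) spans 23720218 to 23722039. The next entry there is CCL7 (ENSOCUG00000034927), which spans 23731287 to 23733738 and has no rabbit name in the table. CCL20 (ENSOCUG00000000868) lies on chromosome 7 from 169686712 to 169689510 and CXCR4 (ENSOCUG00000001923) on the same chromosome from 73636243 to 73689740. CX3CL1 (ENSOCUG00000007482) lies on chromosome 5 from 13525844 to 13537262. CX3CR1 (ENSOCUG00000027509) lies on chromosome 9 from 4412363 to 4413433. CXCL12 (ENSOCUG00000029076) lies on an unplaced scaffold from 213856 to 215106, and the table gives it no rabbit name.

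CCR1 (ENSOCUG00000003658) lies on chromosome 9 from 14443034 to 14444089, in a cluster of receptor genes. CCR2 (ENSOCUG00000003660) lies in the same cluster from 14545405 to 14546514, has 1717 counts over all samples and carries no rabbit name or description in the table. Receptor genes of such a cluster are similar in sequence, and how reads that match several genes were counted is not given in the sources used here, so the values of CCR1 and CCR2 are uncertain to that extent.

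Total counts per sample, taking every locus a single time, ran from 13123731 to 18111086. Levels are given as counts per 1000000 counts of a sample (CPM), over its total of the 13142 tested entries (14506754 to 19958516, in which loci with several genes count repeatedly) scaled by TMM factors of 0.958 to 1.05. Marker genes of alveolar type 2 cells summed to between 11645 and 31342 CPM in every sample, which checks the label of lung tissue. The samples of a group were not interchangeable. NT5 replicate 1 had the highest level of all 9 members within NT5, a T and NK cell marker sum of 46.0 CPM against at most 26.5 CPM in the other samples, and a macrophage and monocyte marker sum of 2936 CPM against 1660 and 1556 CPM in NT5 replicates 2 and 3. Skeletal muscle marker genes summed to 417 CPM in HT3 replicate 2 and to 375 CPM in HT5 replicate 1, against at most 115 CPM elsewhere.

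Each day's HT and NT samples were set against each other by the quasi-likelihood test of edgeR, and a gene was called at an adjusted p-value under 0.05. On day 3, 1 of the 9 members passed, CCL7, which was upregulated, where 1.03% of all genes tested passed and 0.517% were upregulated. On day 5, 3 of 9 passed (CCL2, CCL7 and CCL20, all upregulated), where 31.3% of all genes passed and 15.9% were upregulated. On day 7, 6 of 9 passed, where 47.4% of all genes passed: CCL2, CCL7, CCL20 and CCR1 were upregulated, and CXCR4 and CX3CR1 were downregulated. Over all genes on day 7, 23.7% were upregulated and 23.7% downregulated. The day 5 count was 1 without HT5 replicate 2 and 5 without NT5 replicate 1. The day 7 count was 4 or 5 whichever of the 6 samples was left out, and 4 with only HT7 and NT7 in the fit. The counts on days 5 and 7 are therefore to be read against a background in which a large share of all genes moved. The median log2FC of the members was 0.24, 0.53 and 0.17 on days 3, 5 and 7, against 0.00, -0.02 and -0.01 over all genes tested.

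By the stricter thresholds of the study for differentially expressed genes (DEGs, which need an adjusted p-value under 0.01 together with an absolute log2FC over 2), 1 member was a DEG on day 3 (CCL7), 2 on day 5 (CCL2 and CCL7) and 3 on day 7 (CCL2, CCL7 and CX3CR1). Over all genes tested, 0.0533%, 1.58% and 4.59% met these thresholds on days 3, 5 and 7. The hyperoxia samples all lay on 1 side of the normoxia samples for 4 of 9 members on day 3, 4 on day 5 and 5 on day 7, while 26.7%, 55.7% and 54.5% of all genes were separated in this way.

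**Figure D1:**
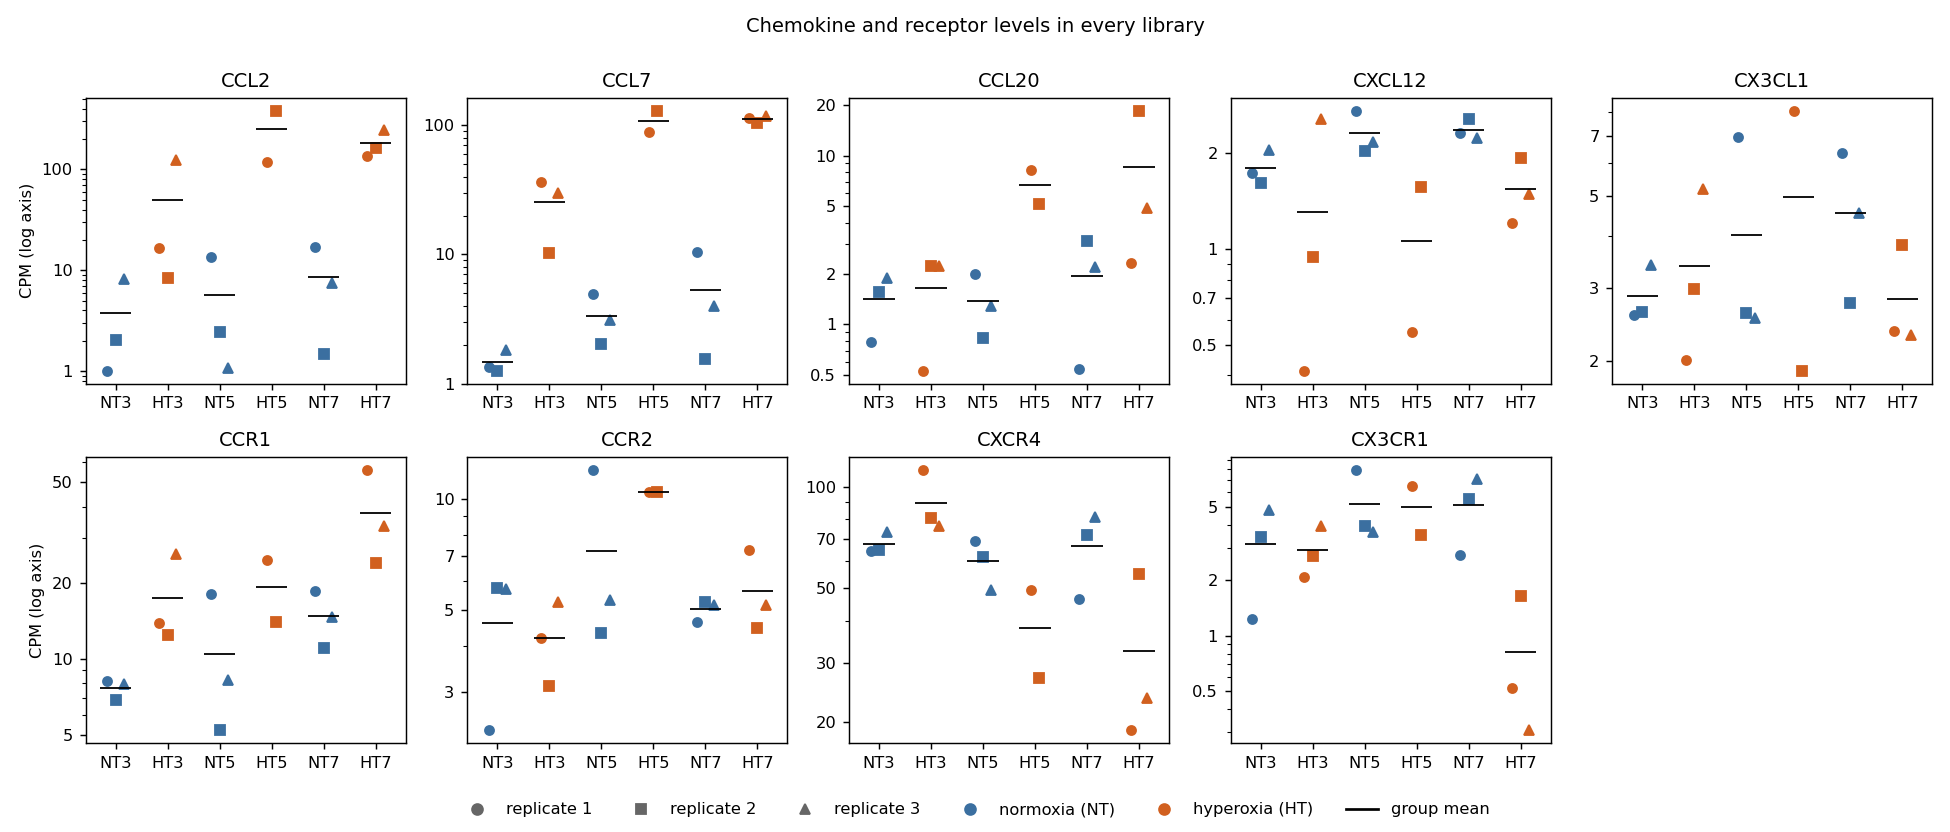
Level of each member in every sample, in CPM on log axes that differ between panels, with marker shape giving the replicate number, colour the oxygen level and the bar the group mean (upper row ligands, lower row receptors). CCL2 and CCL7 sat between 104 and 248 CPM in all HT7 samples and at or under 17.02 CPM in all NT7 samples, while CX3CR1 was lowest in HT7, at 0.307 to 1.63 CPM.

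CCL2, the main attractant of CCR2-bearing monocytes, was higher in every hyperoxia sample than in any normoxia sample of the same day. On day 3 CCL2 was 16.8, 8.31 and 123 CPM in HT3 replicates 1, 2 and 3, against 1.01, 2.02 and 8.25 CPM in NT3. On day 5 CCL2 was 117 and 382 CPM in HT5, against 13.6, 2.42 and 1.09 CPM in NT5. On day 7 CCL2 was 136, 162 and 248 CPM in HT7, against 17.02, 1.48 and 7.48 CPM in NT7. The margin on day 3 was thin, since HT3 replicate 2 lay just above NT3 replicate 3, and HT3 replicate 3 alone held most of the HT3 signal. On days 5 and 7 the lowest hyperoxia sample lay well above the highest normoxia sample.

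The day 3 difference in CCL2 (log2FC 3.73, SE 1.15) missed the threshold, with an adjusted p of 0.137. Without HT3 replicate 3 its log2FC was 1.75, and leaving out each of the 6 samples gave adjusted p-values from 0.144 to 0.474. DESeq2's Wald test gave an adjusted p of 0.0400, the lowest of 8 other settings, which ranged up to 0.1597. On day 5, CCL2 was upregulated 44.3-fold (log2FC 5.47, SE 1.23, adjusted p = 0.00452). This call was lost without HT5 replicate 2 (log2FC 4.37, adjusted p = 0.0528) and kept in the other 4 fits that each left out a sample, with a log2FC of 7.18 without NT5 replicate 1 (adjusted p = 0.00383). On day 7 it was upregulated 21.0-fold (log2FC 4.39, SE 1.14, adjusted p = 0.00535), and the call was kept in all 6 such fits. The normoxia samples spread widely, with SDs of 3.92, 6.86 and 7.83 CPM around means of 3.76, 5.69 and 8.66 CPM in NT3, NT5 and NT7 (n = 3 each).

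CCL7, also called MCP-3, was the only member that was upregulated on all 3 days. On day 3 CCL7 was 36.6, 10.3 and 30.0 CPM in HT3, against 1.34, 1.26 and 1.82 CPM in NT3. On day 5 CCL7 was 88.0 and 130 CPM in HT5, against 4.97, 2.04 and 3.10 CPM in NT5. On day 7 CCL7 was 114, 104 and 118 CPM in HT7, against 10.5, 1.55 and 3.99 CPM in NT7. No hyperoxia sample overlapped with the normoxia samples of its day, and the HT7 samples lay close together (112 CPM ± 7.13, SD, n = 3). NT7 replicate 1, the highest normoxia sample, was just above HT3 replicate 2, the lowest hyperoxia sample.

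CCL7 was 17.3-fold higher in HT3 than in NT3 (log2FC 4.12, SE 0.60, adjusted p = 0.00353), 32.2-fold higher in HT5 than in NT5 (log2FC 5.01, SE 0.60, adjusted p = 9.32e-05) and 20.9-fold higher in HT7 than in NT7 (log2FC 4.39, SE 0.56, adjusted p = 2.87e-05). Every fit that left out a sample kept the call, in 6 of 6 on day 3, 5 of 5 on day 5 and 6 of 6 on day 7. On day 3 the adjusted p-values of these fits ranged from 0.00273 to 0.0391. The neighbouring entries of the cluster on chromosome 19, looked at after the values of the members were seen, are CCL11 (eotaxin) and an entry with the human name CCL1, which the table describes as CCL13. On day 7, CCL11 had a log2FC of 0.10 (SE 0.75, adjusted p = 0.921). The CCL1 entry had a log2FC of 0.04 (SE 0.79, adjusted p = 0.971) on the same day. Both were also not called on days 3 and 5, although CCL11 lay higher in both HT5 samples than in any NT5 sample (log2FC 1.77, SE 0.86, adjusted p = 0.129).

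CCL20 was a low-level gene that did not separate the groups on day 3. On day 3 CCL20 was 0.532, 2.22 and 2.22 CPM in HT3, against 0.784, 1.56 and 1.88 CPM in NT3. On day 5 CCL20 was 8.18 and 5.19 CPM in HT5, against 2.00, 0.827 and 1.29 CPM in NT5. On day 7 CCL20 was 2.31, 18.4 and 4.92 CPM in HT7, against 0.547, 3.10 and 2.18 CPM in NT7. The groups were apart on day 5. On day 7 they overlapped, with HT7 replicate 1 below NT7 replicate 2, and HT7 replicate 2 carried the highest level of the series. The day 3 log2FC was 0.23 (adjusted p = 0.921).

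CCL20 was upregulated 4.84-fold on day 5 (log2FC 2.27, SE 0.80, adjusted p = 0.0418) and 4.38-fold on day 7 (log2FC 2.13, SE 0.73, adjusted p = 0.0264). Both calls depended on which samples were in the fit. On day 5 only the fit without NT5 replicate 1 kept it (log2FC 2.64, adjusted p = 0.0487), and the adjusted p was 0.144 without HT5 replicate 1, 0.106 without HT5 replicate 2, 0.118 without NT5 replicate 2 and 0.101 without NT5 replicate 3. On day 7 the log2FC was 0.90 without HT7 replicate 2 (adjusted p = 0.265), and the call was also lost without NT7 replicate 1 (adjusted p = 0.0908) and NT7 replicate 3 (adjusted p = 0.0594). With only HT7 and NT7 in the fit the adjusted p was 0.0712, the highest of 8 other settings, which began at 0.00673. Values for CCR6, the receptor of CCL20, are not analysed here.

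CXCL12, the homeostatic ligand of CXCR4, had few counts in this series, from 7 to 45 per sample. On day 3 CXCL12 was 0.414, 0.942 and 2.57 CPM in HT3, against 1.74, 1.61 and 2.05 CPM in NT3. On day 5 CXCL12 was 0.550 and 1.57 CPM in HT5, against 2.73, 2.04 and 2.17 CPM in NT5. On day 7 CXCL12 was 1.21, 1.94 and 1.49 CPM in HT7, against 2.32, 2.56 and 2.24 CPM in NT7. All HT5 and HT7 samples lay below the normoxia samples of their day, whereas HT3 spanned the NT3 range. None of the differences passed the test: the log2FC was -0.46 (SE 0.49, adjusted p = 0.713) on day 3, -1.10 (SE 0.57, adjusted p = 0.152) on day 5 and -0.62 (SE 0.49, adjusted p = 0.310) on day 7. Single samples moved these values: without HT3 replicate 3 the day 3 log2FC was -1.39, and the day 5 log2FC was -0.56 without HT5 replicate 1 and -2.07 without HT5 replicate 2, with no adjusted p under 0.05.

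CX3CL1, the membrane-bound ligand of CX3CR1, had 34 to 117 counts per sample and no direction common to the 3 days. On day 3 CX3CL1 was 2.01, 2.99 and 5.19 CPM in HT3, against 2.58, 2.62 and 3.41 CPM in NT3. On day 5 CX3CL1 was 8.04 and 1.89 CPM in HT5, against 6.97, 2.61 and 2.53 CPM in NT5. On day 7 CX3CL1 was 2.36, 3.81 and 2.31 CPM in HT7, against 6.36, 2.77 and 4.55 CPM in NT7. The groups overlapped on every day, and the HT5 replicates were the highest and the lowest samples of the whole series. The log2FC was 0.24 (SE 0.53, adjusted p = 0.873), 0.29 (SE 0.58, adjusted p = 0.735) and -0.69 (SE 0.53, adjusted p = 0.303) on days 3, 5 and 7. Without HT5 replicate 1 the day 5 value was -1.09 and without HT5 replicate 2 it was 0.98.

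Of the enzymes that release CX3CL1 from the membrane, ADAM17 was upregulated on days 5 and 7 and ADAM10 was not called on any day. They were singled out from the fixed list after their values were seen. For ADAM17 the log2FC was 0.12 (adjusted p = 0.782) on day 3, 0.69 (SE 0.18, adjusted p = 0.00999) on day 5 and 0.64 (SE 0.16, adjusted p = 0.00498) on day 7. Its mean was 146 CPM ± 19.6 in HT7 and 93.9 CPM ± 6.84 in NT7 (SD, n = 3 each). The day 7 call was kept in all 6 fits that left out a sample, and the day 5 call in 4 of 5. For ADAM10 the log2FC was -0.10 on day 7 (adjusted p = 0.474).

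CCR1, a receptor for CCL3, CCL5 and CCL7, was higher in hyperoxia on average on each day, with the call on day 7. On day 3 CCR1 was 13.9, 12.4 and 25.9 CPM in HT3, against 8.18, 6.85 and 7.96 CPM in NT3. On day 5 CCR1 was 24.5 and 14.0 CPM in HT5, against 18.0, 5.22 and 8.27 CPM in NT5. On day 7 CCR1 was 55.7, 23.9 and 33.5 CPM in HT7, against 18.6, 11.1 and 14.6 CPM in NT7. The groups did not overlap on days 3 and 7. On day 5 NT5 replicate 1 lay between both HT5 samples.

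CCR1 was upregulated 2.55-fold on day 7 (log2FC 1.35, SE 0.42, adjusted p = 0.0162). The call was lost without HT7 replicate 1 (log2FC 0.96, adjusted p = 0.0941) and without NT7 replicate 2 (log2FC 1.18, adjusted p = 0.0680), and kept in the other 4 such fits. The difference on day 3 (log2FC 1.18, SE 0.43) had an adjusted p of 0.201. On day 5 the log2FC was 0.87 (SE 0.47, adjusted p = 0.163), and without NT5 replicate 1, the sample with the high leukocyte marker sums, it was 1.51 (adjusted p = 0.0210). The fit with the replicate number as a block gave 0.99 on day 5, with an adjusted p of 0.0419, the lowest of 8 other settings, which ranged up to 0.254.

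CCR2, the receptor of CCL2 and CCL7 on inflammatory monocytes, was not called on any day, while both of these ligands were called on days 5 and 7. On day 3 CCR2 was 4.20, 3.10 and 5.25 CPM in HT3, against 2.35, 5.74 and 5.69 CPM in NT3. On day 5 CCR2 was 10.5 and 10.4 CPM in HT5, against 11.997, 4.33 and 5.32 CPM in NT5. On day 7 CCR2 was 7.27, 4.47 and 5.17 CPM in HT7, against 4.65, 5.26 and 5.17 CPM in NT7. The groups overlapped on every day. On day 5 NT5 replicate 1 exceeded both HT5 samples, which lay close together, while the remaining NT5 samples lay below them.

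The log2FC of CCR2 was -0.14 (SE 0.38, adjusted p = 0.906) on day 3, 0.53 (SE 0.41, adjusted p = 0.343) on day 5 and 0.17 (SE 0.38, adjusted p = 0.747) on day 7. Without NT5 replicate 1 the day 5 log2FC was 1.11, with an adjusted p of 0.0399. The other 4 fits that left out a sample did not call CCR2 on day 5, and neither did any of 8 other settings, whose adjusted p-values ran from 0.297 to 0.401. On day 7 these settings gave adjusted p-values from 0.621 to 0.788.

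**Figure D2:**
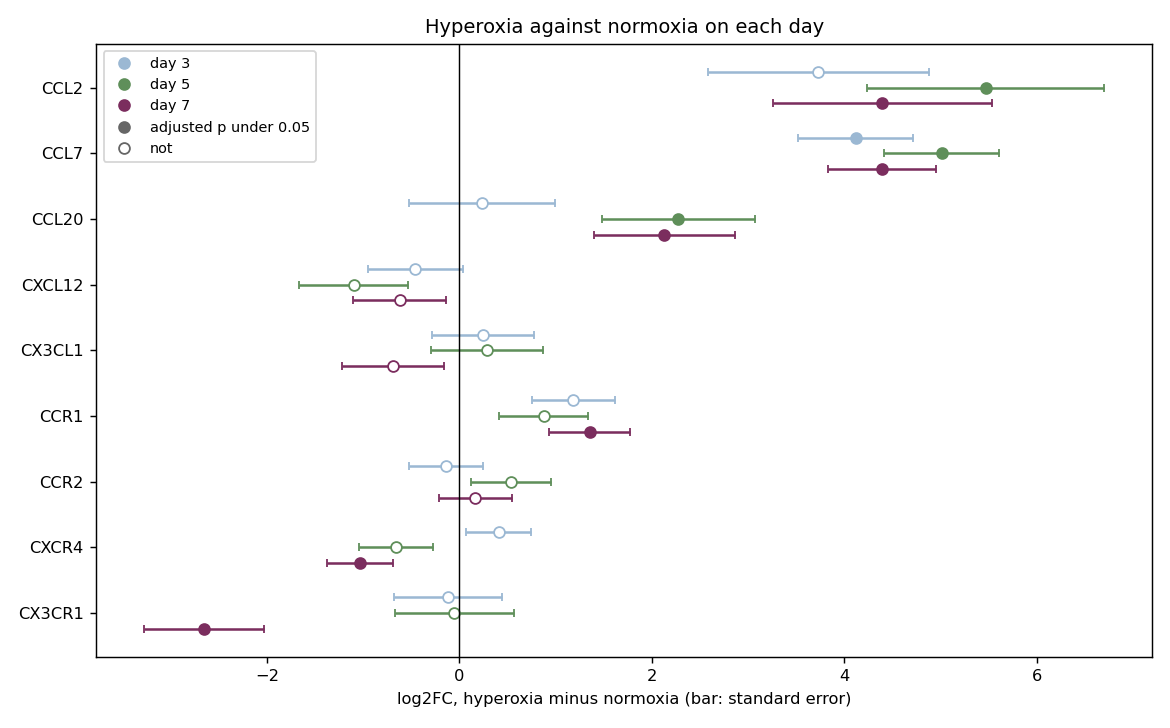
Log2FC of each member in hyperoxia against normoxia on days 3, 5 and 7, with bars of 1 standard error and filled points where the adjusted p was under 0.05. CCL2 and CCL7 lay between 3.73 and 5.47 on all days, while CXCR4 and CX3CR1 were filled on the negative side on day 7 only.

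CXCR4, the receptor of CXCL12, was downregulated in hyperoxia on day 7, having been slightly higher in hyperoxia on day 3. On day 3 CXCR4 was 112, 80.5 and 76.3 CPM in HT3, against 64.2, 65.1 and 73.5 CPM in NT3. On day 5 CXCR4 was 49.3 and 27.1 CPM in HT5, against 69.1, 61.9 and 49.2 CPM in NT5. On day 7 CXCR4 was 18.9, 55.0 and 23.7 CPM in HT7, against 46.3, 71.9 and 81.5 CPM in NT7. All HT3 samples lay above all NT3 samples. On day 5 HT5 replicate 1 lay just above the lowest NT5 sample, and on day 7 HT7 replicate 2 lay above NT7 replicate 1 while the remaining HT7 samples lay below every NT7 sample.

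The log2FC of CXCR4 was 0.41 (SE 0.33, adjusted p = 0.603) on day 3, -0.66 (SE 0.38, adjusted p = 0.205) on day 5 and -1.03 (SE 0.34, adjusted p = 0.0211) on day 7. The day 7 call was kept in 2 of 6 fits that left out a sample. Without HT7 replicate 1 the log2FC was -0.76 (adjusted p = 0.0927) and without HT7 replicate 3 it was -0.84 (adjusted p = 0.0946). Without NT7 replicate 2 the adjusted p was 0.0582 and without NT7 replicate 3 it was 0.0808. Without HT7 replicate 2, the sample that overlaps, the log2FC was -1.63 (adjusted p = 0.000317). With only HT7 and NT7 in the fit the adjusted p was 0.0729, the highest of 8 other settings, which began at 0.00538.

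ACKR3, the alternative CXCL12 receptor, was upregulated on day 7 (log2FC 1.20, SE 0.42, adjusted p = 0.0284), the day on which CXCR4 fell. It was 298, 121 and 111 CPM in HT7, against 110, 52.5 and 67.2 CPM in NT7, so that HT7 replicate 3 lay only just above NT7 replicate 1. The call was kept in 3 of 6 fits that left out a sample, with log2FC values from 0.59 to 1.56. It was not called on day 5 (log2FC 1.14, SE 0.46, adjusted p = 0.0698) or day 3 (log2FC 0.13, adjusted p = 0.918).

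CX3CR1, the fractalkine receptor, was level between the oxygen groups on days 3 and 5 and was downregulated 6.28-fold on day 7. On day 3 CX3CR1 was 2.07, 2.71 and 3.91 CPM in HT3, against 1.23, 3.43 and 4.78 CPM in NT3. On day 5 CX3CR1 was 6.46 and 3.52 CPM in HT5, against 7.88, 3.95 and 3.67 CPM in NT5. On day 7 CX3CR1 was 0.519, 1.63 and 0.307 CPM in HT7, against 2.73, 5.53 and 7.04 CPM in NT7. The groups overlapped on days 3 and 5. On day 7 the highest HT7 sample lay below the lowest NT7 sample, and in counts these were 27 and 40.

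The log2FC of CX3CR1 was -0.12 (SE 0.57, adjusted p = 0.948) on day 3, -0.05 (SE 0.62, adjusted p = 0.958) on day 5 and -2.65 (SE 0.62, adjusted p = 0.00286) on day 7. The day 7 call was kept in all 6 fits that left out a sample, with log2FC values from -3.61 to -2.23 and adjusted p-values from 0.000651 to 0.0165. It was also kept in all 8 other settings. The HT7 counts of 9, 27 and 6 are small, and counting error adds to the spread between these samples.

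**Figure D3:**
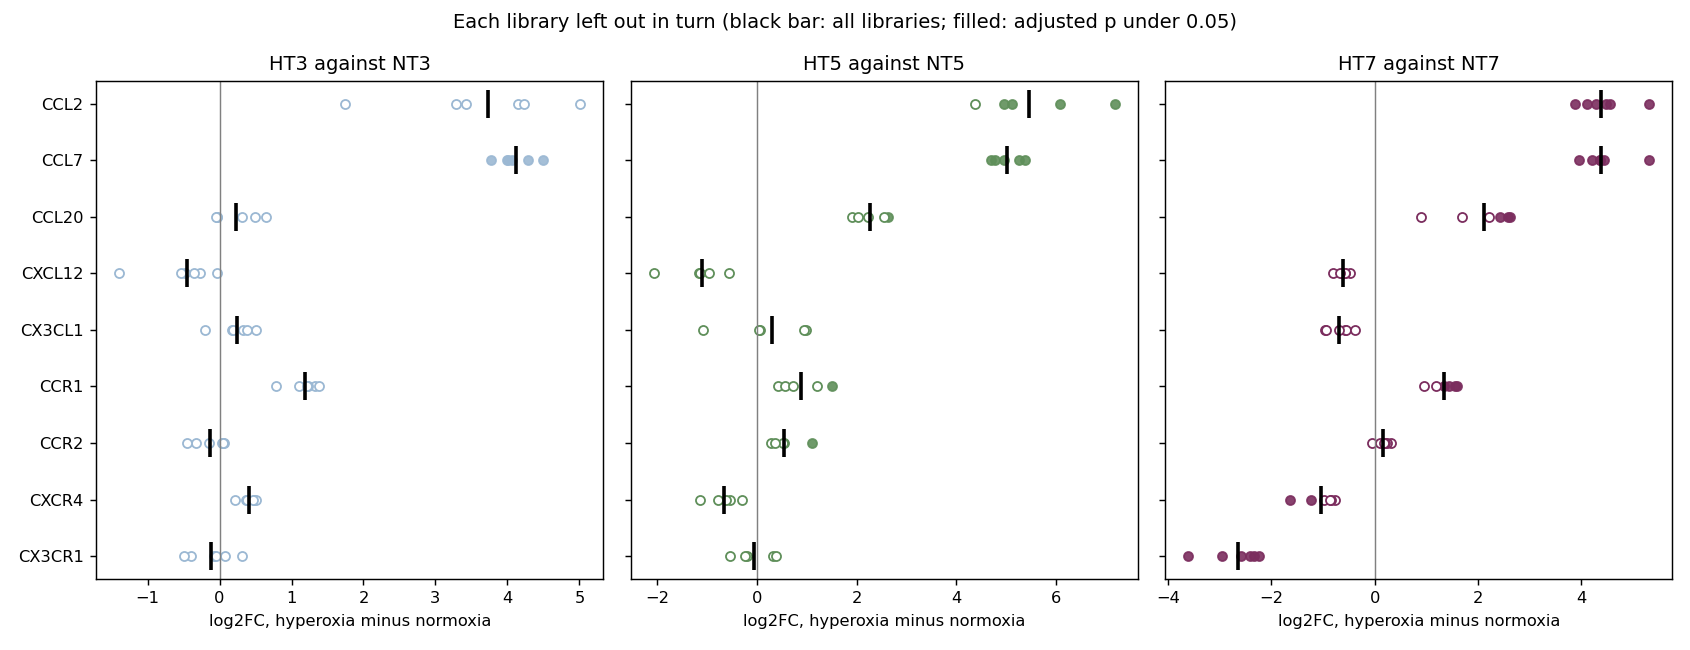
Log2FC of each member on days 3, 5 and 7 when 1 sample at a time is left out (points, filled where the adjusted p was under 0.05), with the value from all samples as a black bar. CCL7 stayed filled throughout, CX3CR1 stayed filled on day 7, and CXCR4 was filled in 2 of 6 fits on day 7.

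The change in the hyperoxia effect between days 3 and 7 was tested as an interaction of oxygen and day. It passed for 2 of the 9 members, where 20.5% of all genes tested passed and 11.0% had a lower effect on day 7. For CXCR4 the day 7 effect was lower than the day 3 effect by a log2 difference of -1.44 (SE 0.48, adjusted p = 0.0450). For CX3CR1 the difference was -2.53 (SE 0.84, adjusted p = 0.0448). Both were close to the threshold and were kept in 3 of 12 fits that each left out a sample, with ranges from -2.05 to -1.17 for CXCR4 and from -3.49 to -2.12 for CX3CR1. With the replicate number as a block neither was called, at -1.47 (adjusted p = 0.0576) for CXCR4 and -2.53 (adjusted p = 0.0591) for CX3CR1. The remaining 7 members were not called, with differences from -0.93 for CX3CL1 to 1.89 for CCL20. For CCL2 (0.66, SE 1.503) and CCL7 (0.27, SE 0.79) the standard errors exceeded the differences, so that a larger effect on day 7 than on day 3 was not shown.

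Within hyperoxia, 5 of 9 members differed between days 3 and 7, where 44.3% of all genes tested passed, 22.3% upward and 22.0% downward. CCL7 rose 4.37-fold from HT3 to HT7 (log2FC 2.13, SE 0.49, adjusted p = 0.00302), CCL20 rose 5.13-fold (log2FC 2.36, SE 0.74, adjusted p = 0.0176) and CCR1 rose 2.17-fold (log2FC 1.12, SE 0.42, adjusted p = 0.0419). CXCR4 fell 2.76-fold (log2FC -1.46, SE 0.34, adjusted p = 0.00318) and CX3CR1 fell 3.57-fold (log2FC -1.83, SE 0.62, adjusted p = 0.0264). The calls of CCL7 and CXCR4 were kept in all 6 fits that left out a sample.

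The other within-hyperoxia calls were less secure. CCL20 was lost without HT3 replicate 1 (adjusted p = 0.0675) and without HT7 replicate 2 (log2FC 1.13, adjusted p = 0.169). CCR1 was lost without HT3 replicate 1 (adjusted p = 0.126), HT3 replicate 2 (adjusted p = 0.143), HT7 replicate 1 (log2FC 0.72, adjusted p = 0.209) and HT7 replicate 3 (adjusted p = 0.0601). CX3CR1 was lost without HT3 replicate 3 (adjusted p = 0.0830), HT7 replicate 1 (adjusted p = 0.0950) and HT7 replicate 3 (adjusted p = 0.105). CCL2, whose HT7 samples all lay above its HT3 samples, had a log2FC of 1.88 (SE 0.9985, adjusted p = 0.140), and without HT3 replicate 3 it was 3.86 (adjusted p = 0.0119).

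Within normoxia, no member was called between days 3 and 7. Of all genes tested, 0.0% passed with edgeR, where 824 genes (6.27%) had an unadjusted p under 0.05 and DESeq2's Wald test called 39 (0.294%). At an unadjusted p under 0.05 there were 2 members, CCL7 (log2FC 1.86, SE 0.61, adjusted p = 0.602) and CCR1 (log2FC 0.95, SE 0.43, adjusted p = 0.782), and DESeq2 called none of the 9. These within-condition comparisons share samples with the comparisons of hyperoxia and normoxia and are not independent of them.

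In order of group means, CCL2 and CCL7 were highest in HT5 and HT7, whose ranges overlapped, next in HT3 and lowest in the normoxia groups. For CCL2 the ranges of HT7 and HT3 were apart, and those of HT3 and NT7 overlapped. For CXCR4 the order ran from HT3 (89.6 CPM ± 19.5, n = 3) through NT3, NT7 and NT5 to HT5 and HT7 (32.5 CPM ± 19.6, n = 3), and of these neighbours only HT3 and NT3 had ranges apart. For CX3CR1 the NT5, NT7 and HT5 means lay between 4.99 and 5.16 CPM, those of NT3 and HT3 at 3.15 and 2.90 CPM, and that of HT7 at 0.820 CPM, apart from all others in range except NT3.

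The other chemokine genes were taken from lists of 34 ligands, 14 receptors and 8 genes of atypical receptors and ligand processing. Of these 56 genes, 31 were in the table by human name and 28 were tested. On day 3, edgeR called 0 of 28, where 3 had an unadjusted p under 0.05 and DESeq2 called 1, the entry named CXCR2. On day 5, 4 were upregulated and 2 downregulated (21.4%, against 31.3% of all genes tested). On day 7, 5 were upregulated and 3 downregulated (28.6%, against 47.4% of all genes). The log2FC was above 0 for 16, 11 and 10 of the 28 genes on days 3, 5 and 7.

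Among the 15 other ligands tested, 2 were upregulated on day 5, 2 on day 7 and none was downregulated on these days. The median log2FC of these ligands was -0.26 on day 5 and -0.38 on day 7. CXCL8, which attracts neutrophils, was 223 and 181 CPM in HT5, against 48.5, 7.96 and 7.80 CPM in NT5 (log2FC 3.24, SE 1.01, adjusted p = 0.0245). On day 7 it was 423, 245 and 342 CPM in HT7, against 69.2, 9.17 and 22.6 CPM in NT7 (log2FC 3.32, SE 0.96, adjusted p = 0.0103). The hyperoxia samples lay above all normoxia samples on both days, and the call was kept in 6 of 6 fits that left out a sample on day 7 and in 1 of 5 on day 5, the fit without NT5 replicate 1.

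CXCL5, another neutrophil attractant, was upregulated on day 7 (92.2 CPM ± 22.6 in HT7 against 13.2 CPM ± 10.6 in NT7, n = 3 each, log2FC 2.80, SE 1.05, adjusted p = 0.0389). That call was kept in 1 of 6 fits that left out a sample. CXCL16, the ligand of CXCR6, was upregulated on day 5 (log2FC 0.86, SE 0.31, adjusted p = 0.0442), and the call was kept in 1 of 5 such fits, the fit without NT5 replicate 1. Of the ligands of CXCR3, CXCL9 had a log2FC of -2.56 (SE 1.55, adjusted p = 0.189), CXCL10 of 0.30 (SE 0.90, adjusted p = 0.809) and CXCL11 of -2.12 (SE 1.34, adjusted p = 0.210) on day 7, and none was called. On day 5 these ligands were not called either, with a log2FC of -0.79 (adjusted p = 0.720) for CXCL9, 2.20 (SE 0.99, adjusted p = 0.103) for CXCL10 and 0.65 (adjusted p = 0.736) for CXCL11, and both HT5 samples of CXCL10 lay above all NT5 samples. The lymphoid homing ligand CCL21 had a log2FC of -0.94 on day 5 (SE 0.35, adjusted p = 0.0524) and -0.41 on day 7 (SE 0.30, adjusted p = 0.279).

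Among the 7 other receptors tested, 1 was upregulated and 1 downregulated on day 5, and 1 was upregulated and 2 downregulated on day 7. Their median log2FC was -1.23 on day 5 and -2.14 on day 7. The entry with the human name CXCR2, which the table describes as CXCR1, is the receptor entry for CXCL8 and rose on day 5 (log2FC 1.18, SE 0.37, adjusted p = 0.0264). On day 7 its log2FC was 0.9995 (SE 0.33, adjusted p = 0.0228), with HT7 replicate 2 inside the NT7 range. These calls were kept in 1 of 5 and 2 of 6 fits that left out a sample.

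The other receptors that fell are carried by lymphocytes and had very few counts. CXCR6, found on T and NK cells, was downregulated on day 7 (log2FC -2.20, SE 0.85, adjusted p = 0.0441), with 1, 4 and 3 counts in HT7 and 7, 7 and 19 in NT7, and the call was kept in 3 of 6 fits that left out a sample. CXCR5, the B cell homing receptor, was downregulated on day 5 (log2FC -2.32, SE 0.80, adjusted p = 0.0400), with 2 counts in each HT5 sample against 17, 10 and 5 in NT5, and was called in 1 of 5 such fits, the fit without NT5 replicate 3. The CXCR5 call was kept in 5 of 8 other settings and lost with DESeq2, with the replicate number as a block and with only HT5 and NT5 in the fit (adjusted p-values up to 0.104), and with a prior count of 2 its log2FC was -1.66. CCR9, a receptor of gut-homing T cells, had 0, 1 and 1 counts in HT7 and 4, 5 and 12 in NT7, with an adjusted p of 0.00656. Its highest levels of the series were in normoxia, in NT7 replicate 3 and NT5 replicate 2. The call was kept in 5 fits that left out a sample (adjusted p-values from 0.00742 to 0.0274). The fit without NT7 replicate 3, the sample with 12 counts, gave no value for CCR9. Whether the call depends on that sample is therefore not known. XCR1 (log2FC -2.28, SE 0.94, adjusted p = 0.0590) and CXCR3 (log2FC -2.14, SE 1.15, adjusted p = 0.141) were not called on day 7.

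ACKR4, a scavenging receptor for CCL19, CCL21 and CCL25, was downregulated on days 5 and 7. It was 27.9 and 16.6 CPM in HT5, against 42.5, 43.3 and 53.5 CPM in NT5 (log2FC -1.07, SE 0.27, adjusted p = 0.00925). It was 19.0, 15.4 and 19.8 CPM in HT7, against 43.7, 52.8 and 42.6 CPM in NT7 (log2FC -1.36, SE 0.24, adjusted p = 0.000358). The groups were apart on both days, and the call was kept in 6 of 6 fits that left out a sample on day 7 and 4 of 5 on day 5. With ACKR3 and ADAM17, this made 2 genes up and 1 down among the 6 tested on day 7, and ADAM17 and ACKR4 made 1 up and 1 down on day 5. ACKR2, which scavenges inflammatory CC chemokines, and CCRL2 were not called on any day (day 7 log2FC of -0.22, SE 0.29, and -0.23, SE 0.22).

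**Figure D4:**
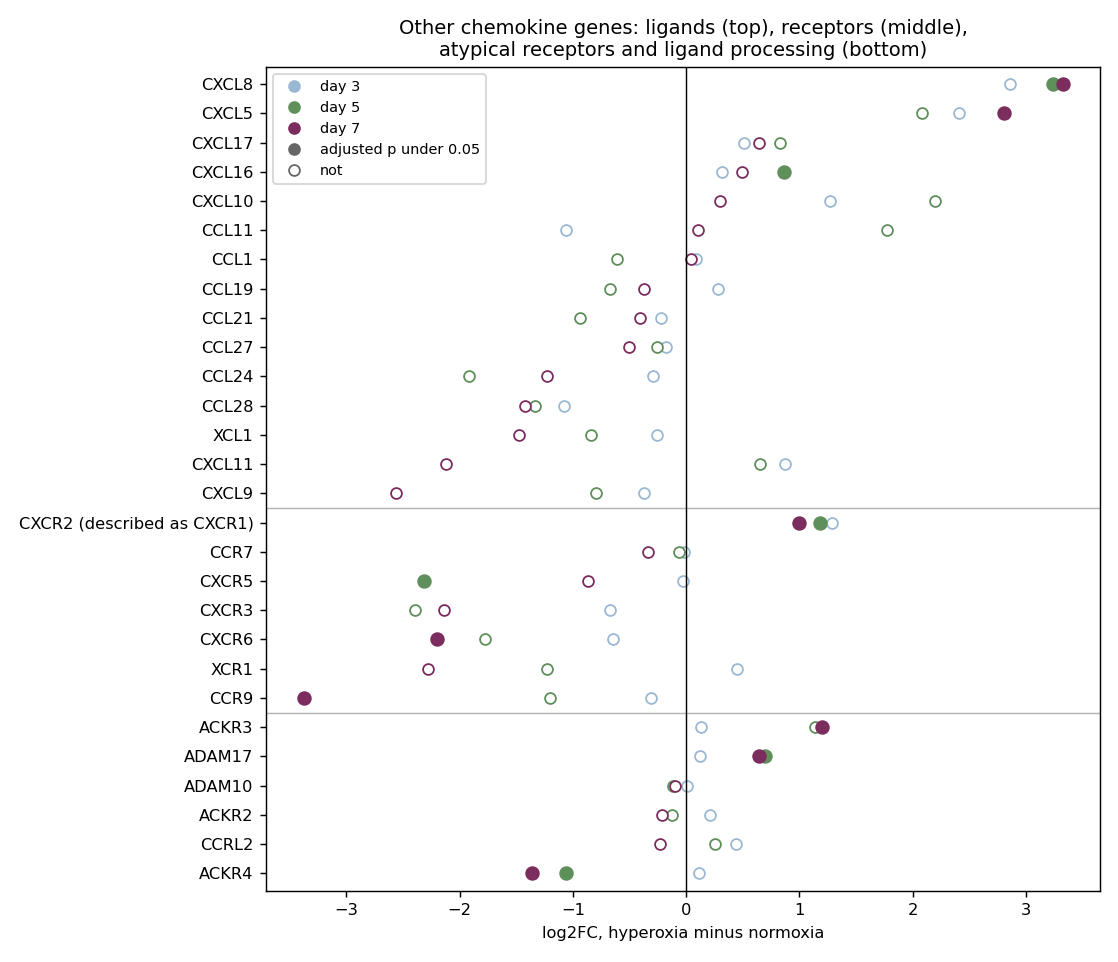
Log2FC of the 28 tested chemokine genes of the 3 lists on days 3, 5 and 7, filled where the adjusted p was under 0.05, in order of the day 7 value within each list. CXCL8 and CXCL5 stand at the right on day 7, at 3.32 and 2.80, ACKR4 is filled at the left on days 5 and 7, and the leftmost point, CCR9 on day 7, rests on 0, 1 and 1 counts in HT7.

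Marker genes of the cells that carry these receptors were counted beside the members. Of 19 macrophage and monocyte markers tested, 2 were upregulated and 1 was downregulated on day 5 (15.8%, against 31.3% of all genes tested). On day 7, 4 were upregulated (CD68, CD163, MERTK and MSR1) and 3 downregulated (MARCO, LYZ and SIGLEC1), which is 36.8% against 47.4% of all genes, and the median log2FC of the list was 0.07. Their summed level was 2923 to 3419 CPM in HT7 and 2095 to 2310 CPM in NT7, and 2491 to 3194 CPM in HT5 against 1556 to 2936 CPM in NT5. It was 1515 to 2311 CPM in HT3 and 1592 to 1724 CPM in NT3. CD68, the most abundant gene of this list, carried the day 7 difference: alone it was 1179 to 1999 CPM in HT7 and 599 to 768 CPM in NT7, and without it, an alternative chosen after seeing the data, the other 18 genes summed to 1328 to 1745 CPM in HT7 and 1410 to 1542 CPM in NT7. The part of these cells in the higher CCL2, CCL7 and CCR1 levels was not tested. Of 8 neutrophil markers tested, 2 were upregulated on day 5 (CSF3R and the CXCR2 entry), and on day 7 the CXCR2 entry was upregulated and MPO was downregulated, which is 25.0% on both days and below the share of all genes. Their summed level was 1170 to 1867 CPM in HT3 against 305 to 822 CPM in NT3, 721 to 966 CPM in HT5 against 159 to 720 CPM in NT5, and 1065 to 3526 CPM in HT7 against 1079 to 1190 CPM in NT7. No neutrophil marker was called on day 3, where 1.03% of all genes passed.

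Lymphocyte markers were mixed on day 7, the day on which CX3CR1 and CXCR4 fell. Of 10 T and NK cell markers tested, 6 were downregulated (CD3D, CD3E, CD2, CD4, ZAP70 and PRF1) and 1, the entry named CD8B, was upregulated (log2FC 5.65, adjusted p = 8.96e-07), which is 70.0% against 47.4% of all genes. Among those not called, NKG7 had a log2FC of 0.83 (SE 0.59, adjusted p = 0.262). The CD8B entry was the only marker of this list called on day 5, also upregulated (log2FC 5.18, adjusted p = 4.83e-06). The summed level of the T and NK list was 9.98 to 12.1 CPM in HT7 and 9.57 to 26.5 CPM in NT7, so the ranges overlapped. The sum was 15.9 to 23.9 CPM in HT5 against 12.8 to 46.0 CPM in NT5, and 6.65 to 6.92 CPM in HT3 against 6.11 to 17.9 CPM in NT3. These sums include the CD8B entry, which averaged 4.75 CPM in HT7 against 0.0868 CPM in NT7, and 7.31 CPM in HT5 against 0.197 CPM in NT5. Sums without the CD8B entry were not taken, so the overlap on day 7 does not show that the other markers were level. The median log2FC of the list was -1.75 on day 7. No gene of these leukocyte lists was at 0 in all samples.

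Of 6 B cell markers tested, 4 were downregulated on day 7 (MS4A1, CD79B, PAX5 and BLK), which is 66.7% against 47.4% of all genes, with sums of 4.25 to 5.50 CPM in HT7 and 8.41 to 11.0 CPM in NT7. CD22 went the other way, with 3.25 CPM in HT7 and 2.03 CPM in NT7 on average and no overlap, and was not called (log2FC 0.67, SE 0.46, adjusted p = 0.247). Of 5 dendritic cell markers, ZBTB46 was downregulated on days 5 and 7 and no other was called. ZBTB46 alone was 5.999 to 10.2 CPM in HT7 and 21.3 to 25.5 CPM in NT7, while the other 4 markers summed to 7.07 to 9.40 CPM in HT7 and 7.45 to 10.2 CPM in NT7, so the lower sum of the list rested on this gene. Endothelial cells carry CXCR4 and make CX3CL1. Of 7 endothelial markers, TIE1 was downregulated on day 3, 5 were downregulated and 1 (VWF) upregulated on day 5, and 5 were downregulated on day 7. These are 14.3%, 85.7% and 71.4% of the list, against 1.03%, 31.3% and 47.4% of all genes tested. Their sums were 2231 to 2668 CPM in HT3 against 2564 to 2914 CPM in NT3, 1232 to 1281 CPM in HT5 against 2096 to 2624 CPM in NT5, and 892 to 1272 CPM in HT7 against 2271 to 2685 CPM in NT7. The part of lymphocytes and endothelial cells in the lower CX3CR1 and CXCR4 levels was not tested.

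**Figure D5:**
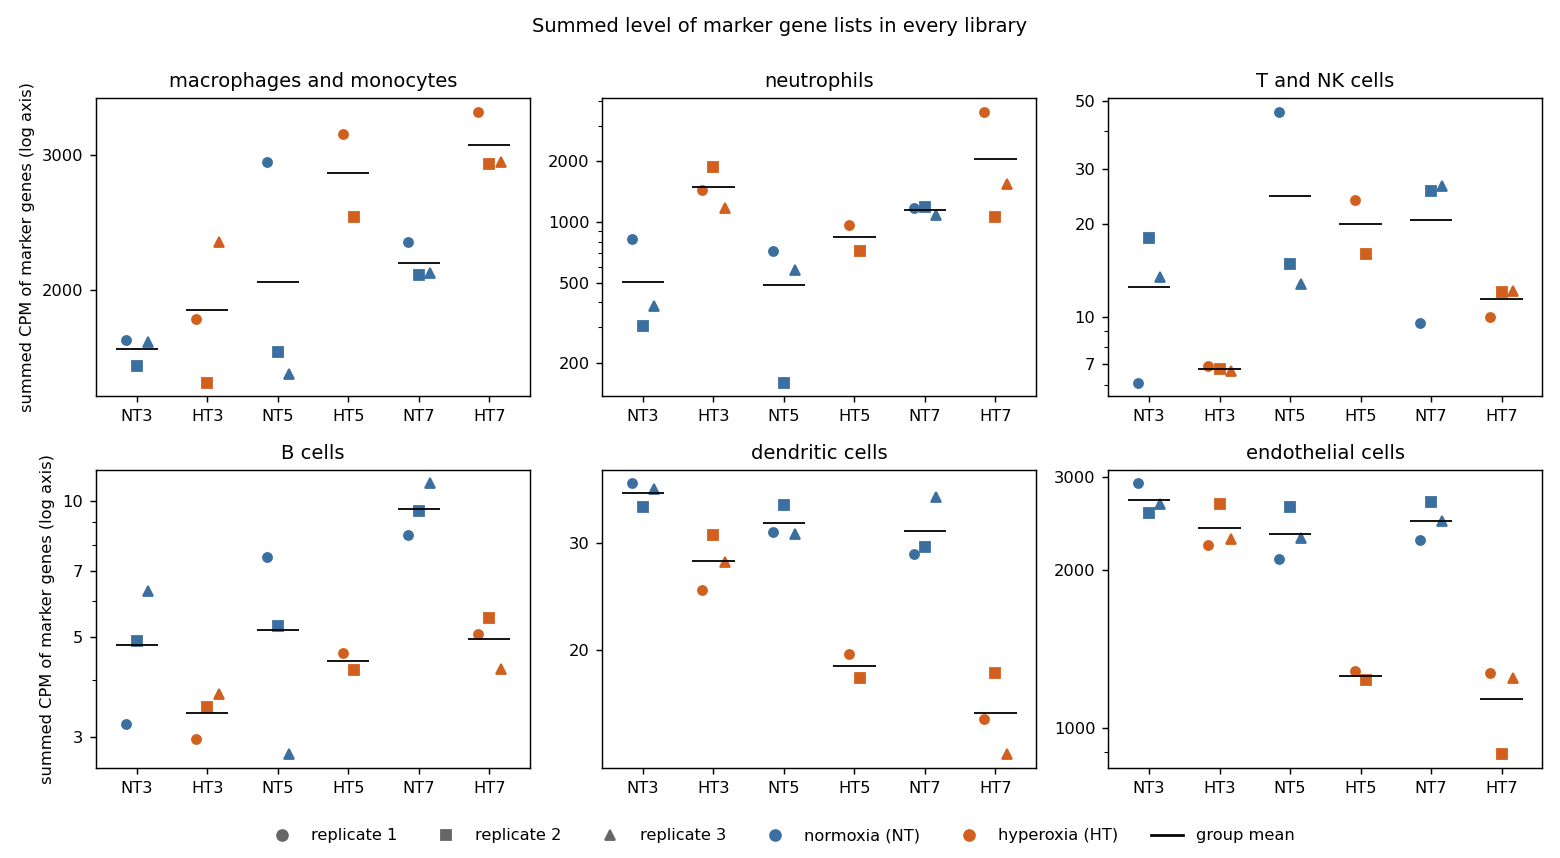
Summed level of 6 marker gene lists in every sample, in CPM on log axes, with symbols as in the plot of the members by sample. HT7 samples lay above NT7 for macrophages and monocytes (2923 to 3419 against 2095 to 2310 CPM), where CD68 carried the difference, and below NT7 for B cells, endothelial cells and dendritic cells, the last through ZBTB46 alone, and NT5 replicate 1 stands out for T and NK cells at 46.0 CPM.

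Genes with the pattern most like that of 3 members were sought across the 17 samples as those with the smallest root mean square difference of centred log2 CPM, among 11467 genes. For CCL2, whose own SD over samples was 2.79 on this scale, these were CCL7 (difference 0.960), CXCL8 (0.987) and CDKN1A (1.12). For CCL7 (SD 2.47) they were CDKN1A (0.775), EDA2R (0.832) and SRXN1 (0.877). For CX3CR1 (SD 1.14) they were LRRN1 (0.552), GIMAP5 (0.563) and CD4 (0.611).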

How the data were processed

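RNA was measured in 17 lung samples. The labels and the study's methods give the right lung, while a passage of its results names the left. The authors sequenced stranded poly(A) libraries as paired-end reads, and the values they deposited are whole-number counts for each locus, with no normalization. FastQC, STAR 2.7.10a and OryCun2.0 are listed in the submitters' processing notes, and the counting program is not given in the sources used here. A locus with several genes repeats its counts (514 of 13827 entries), but each member stands alone at its locus. 44 entries without a human name entered the fit. Of the entries with the human name CCR2, 1 is not reported here.

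The fit used edgeR 4.0.16 under R 4.3.3: filterByExpr (13142 tested, 685 not), TMM, 6 group means over all 17 samples, the quasi-likelihood test and Benjamini-Hochberg adjustment over all genes tested. Log2FC used a prior count of 0.125, and SE is the absolute log2FC divided by the square root of F. The study itself used DESeq2, here run as an alternative (1.42.0). The script was tested on simulated counts. Tables and figures used pandas 2.3.3 and matplotlib 3.10.9.

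All members are named, and of the 3 lists of other chemokine genes, for days 5 and 7, up to 3 called genes in each direction with the largest log2FC, plus genes named after their values were seen. The members, these lists and the 13 marker lists were chosen with earlier results of these data known. The 7 marker lists not described above had these calls on day 7, where 47.4% of all genes passed: fibroblasts and stroma 2 up and 2 down of 8 (50.0%), smooth muscle and pericytes 4 down of 7 (57.1%), alveolar type 2 cells 1 up and 1 down of 7 (28.6%), alveolar type 1 cells 4 down of 6 (66.7%), ciliated and club cells 0 of 5, erythroid cells 2 down of 3 (66.7%), and skeletal muscle 1 down of 6 (16.7%).

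Whether same-numbered samples pair was checked by the correlation of their deviations from group means: 0.166, 0.131 and 0.199 on day 3, 0.264 and 0.141 on day 5, and 0.174, 0.109 and 0.0695 on day 7. All were positive, and day 5 had fewer pairs because a hyperoxia sample is missing. The sources do not say what the numbers stand for.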

Additional observations from a re-analysis of the deposited data

Results flagged for a closer look

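For CXCR4, the hyperoxia effect differed between day 7 and day 3 by a log2 difference of -1.44 (SE 0.48, adjusted p = 0.0450, interaction of oxygen and day in edgeR's quasi-likelihood test): the mean was higher in HT3 than in NT3 (89.6 against 67.6 CPM) and lower in HT7 than in NT7 (32.5 against 66.6 CPM). For CX3CR1, the difference was -2.53 (SE 0.84, adjusted p = 0.0448), with means of 2.90 CPM in HT3 and 3.15 CPM in NT3, and of 0.820 CPM in HT7 and 5.10 CPM in NT7. Leaving out 1 of the 12 samples at a time gave adjusted p-values from 0.00136 to 0.109 for CXCR4 and from 0.00720 to 0.106 for CX3CR1. With the replicate number as a block the adjusted p was 0.0576 for CXCR4 and 0.0591 for CX3CR1, so neither was called.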

How the results depend on the processing

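Over 432 values of the 9 members from 8 other settings, 422 kept direction and call, 7 lost the call, 2 gained it and 1 changed sign; over 369 values that left out 1 sample, 299 kept both, 41 lost the call, 3 gained it and 26 changed sign. The count of members called became 2 on day 3 with DESeq2, and 3 on day 7 and 1 in HT7 against HT3 with the study's thresholds. For the hyperoxia effect of day 7 against day 3 it was 1 with library totals, 1 with only the groups compared, 0 with the study's thresholds and 0 to 2 when 1 sample was left out. Leaving out 1 sample gave counts of 1 to 5 on day 5 and of 3 to 5 in HT7 against HT3, with 3 without HT3 replicate 1, HT7 replicate 1 or HT7 replicate 3. Leaving CCR2 out, an alternative chosen after seeing the data, could not change a count of members called, since CCR2 was called in no comparison of the main fit. A lone HT5 sample was assumed to vary like the other groups.

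With the replicate number as a block, no member of day 3 changed its call, the interaction count was 0, and CX3CR1 on day 5 turned from -0.05 to 0.0091. Of the other chemokine genes named, CXCL16 on day 5 (adjusted p = 0.104) and ACKR3 (0.0511) and the CXCR2 entry (0.0540) on day 7 lost their call with only the groups compared. The block called CCR1 on day 5 and changed no other call of the members on days 5 and 7.

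Log2FC values that changed sign when 1 sample was left out, none of them called, ranged on day 3 from -0.0505 to 0.65 for CCL20, -0.20 to 0.51 for CX3CL1, -0.50 to 0.31 for CX3CR1 and -0.45 to 0.0571 for CCR2. They ranged on day 5 from -1.09 to 0.98 for CX3CL1 and -0.55 to 0.39 for CX3CR1, and on day 7 from -0.0577 to 0.31 for CCR2. For the effect of day 7 against day 3 they ranged from -0.62 to 2.64 for CCL2, -0.16 to 1.21 for CCL7, -0.22 to 0.57 for CCR1 and -0.58 to 0.77 for CXCL12. In NT7 against NT3 they ranged from -0.035 to 0.90 for CCL20, -0.19 to 0.18 for CXCR4 and -0.18 to 0.32 for CCR2. In HT7 against HT3 they ranged from -0.18 to 1.17 for CXCL12 and -0.53 to 0.17 for CX3CL1. CXCL12, CX3CL1 and CX3CR1 have few counts, which limits the precision of their values.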
